A study of Rattus norvegicus with 16 samples.

Results

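Golgins are long coiled-coil proteins that stand out from the membranes of the Golgi apparatus and catch passing vesicles. The 9 golgin genes described here are Golgb1, Golga1, Golga2, Golga3, Golga4, Golga5, Gcc1, Gcc2 and Trip11. They were selected by gene symbol, and the group itself was chosen from earlier results of the deposited comparison of Pink1-/- with wildtype (WT) rats, with Golgb1 as its lead gene. The fold changes and p-values behind that choice are not used here, so whether any golgin differed between genotypes is not reported. All 9 had 1 row in each of 2 deposited tables, under the same Ensembl ID in both, among 13731 genes present in both tables.

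The tables came from bulk RNA sequencing of the PAG (periaqueductal gray), tissue around the midbrain aqueduct that modulates vocal output and pain. The animals were Long Evans rats aged 8 months, and all groups shared that strain, age and tissue. Each sex had a WT and a Pink1-/- group, and each of these 4 groups gave 4 libraries, 16 in all. Pink1 encodes a mitochondrial kinase, and Pink1-/- rats lack it in every cell, so no cell type was targeted. One table covers the 8 female libraries and the other the 8 male libraries, and each holds 1 average level per gene over both genotypes. Values of single libraries were not analysed here. Sequencing depth and animal-to-animal spread are therefore unknown, no level below carries an error, and the genotype labels were not checked against Pink1 reads.

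Golgins are sorted along the Golgi stack, and each part of the stack has its own members. GM130, the product of Golga2, sits on the cis side, where cargo arrives from the endoplasmic reticulum. Giantin, the product of Golgb1, and golgin-84, the product of Golga5, are anchored in the membrane by a stretch at their C-terminal end. On the trans side, golgin-97, golgin-245, GCC88 and GCC185 (products of Golga1, Golga4, Gcc1 and Gcc2) share a GRIP domain, which in several of them binds the small GTPase Arl1. Neurons also use Golgi outposts in dendrites.

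Levels are the authors' average log2 CPM as given by the program edgeR. CPM are reads of a gene scaled to a fixed library total. A longer transcript gives more reads at the same number of molecules, and transcript lengths were not used here. The levels below are therefore shares of reads, and their order is not an order of transcript abundance. The tables of both sexes were normalized separately by the authors, and their values are given side by side. Over all rows the median level was 16.1 CPM in the female table and 13.2 CPM in the male table. Of the 9 golgins, 8 lay above the median of their table in both sexes, and Gcc1 lay below it.

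The membrane-anchored golgins differed widely in their share of reads. Golgb1 averaged 7.33 log2 CPM (161 CPM) in the female table and 7.83 log2 CPM (227 CPM) in the male table. These were the highest values among the 9 golgins in both tables, above 95.2% of all rows in the female table and above 97.6% in the male table. Golga5 was at 26.7 CPM in females and at 26.3 CPM in males. Both averages of Golga5 lay in the upper middle of their table, above 63.5% and 67.5% of rows.

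On the cis side, Golga2 was at 5.60 log2 CPM (48.3 CPM) in the female table and at 5.17 log2 CPM (35.9 CPM) in the male table. Trip11 encodes GMAP-210, a cis golgin that binds strongly curved membranes and takes part in traffic to the Golgi. Its averages were 141 CPM in females and 176 CPM in males, which placed it directly after Golgb1 in both tables. Golga3, which encodes golgin-160, had 56.9 CPM in the female table and 49.2 CPM in the male table. Its place was nearly equal in both, above 81.4% of all rows in each table.

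The GRIP domain golgins of the trans side ranked from the third place to the last by share of reads. Gcc2 averaged 133 CPM in females and 151 CPM in males. Golga4 was at 116 CPM in the female table and at 117 CPM in the male table. Reads of Golga1 were fewer, with 34.0 CPM in females and 40.2 CPM in males. Gcc1 had the lowest averages of all 9 golgins, 15.2 CPM in the female table and 10.4 CPM in the male table. Members of 1 domain family thus included both a gene above 93.5% of rows (Gcc2 in females) and a gene above 48.3% (Gcc1 in females).

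**Figure D1:**
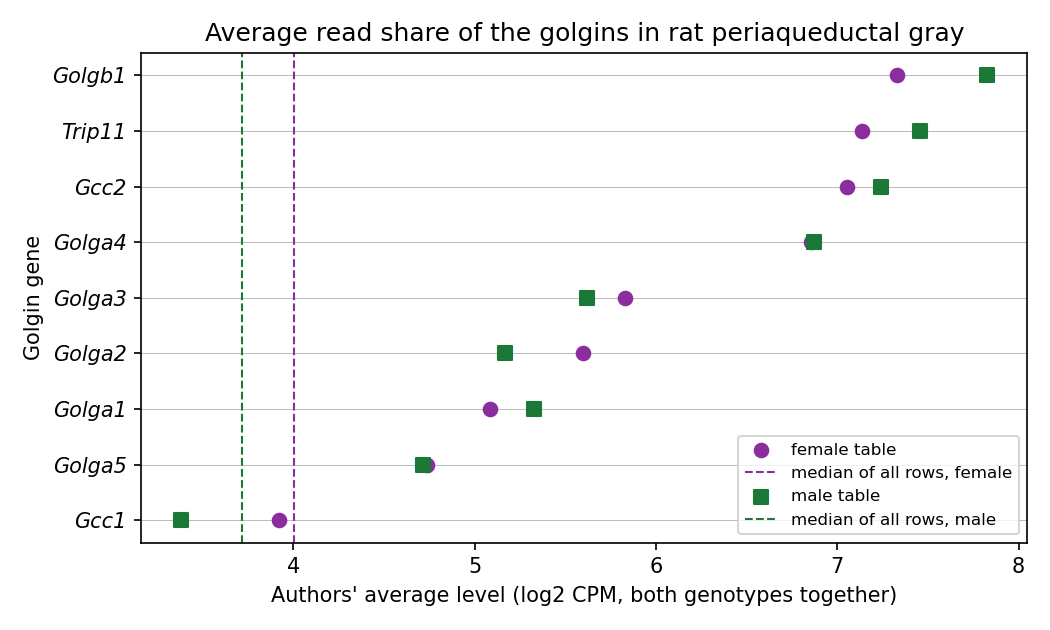
Each row is a golgin gene and the horizontal axis is the authors' average level in log2 CPM over both genotypes; circles are the female table, squares the male table, and dashed lines the median of all rows in each table. Golgb1 lies furthest right in both tables, at 7.33 in females and 7.83 in males, and Gcc1 is the only gene left of its table's median, which is 4.01 in females and 3.72 in males.

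The order of the golgins by share of reads was nearly the same in both tables. In females it ran Golgb1, Trip11, Gcc2, Golga4, Golga3, Golga2, Golga1, Golga5 and Gcc1. Golga1 and Golga2 changed places in males, and the other 7 golgins kept their rank. Summed over the 9 genes, golgins took 731 CPM in the female table and 833 CPM in the male table. Whether neighbours in this order differ beyond the spread between animals could not be tested.

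Levels in both tables were then set against the shift that all genes showed. Over the 13731 shared rows, the female average exceeded the male one by a median of 0.19 on the log2 scale, with quartiles of -0.11 and 0.57, and 34.4% of rows were higher in the male table. Of the 9 golgins, 5 were higher in the male table, and their median difference, female minus male, was -0.01. Relative to the median of all rows, which by construction splits the rows evenly, 6 golgins lay lower and 3 lay higher, and nothing is read from counts of this size. These differences have no test, because neither table gives a spread. Sex cannot be told apart from the separate normalization and from any cohort that goes with it. The gene symbol differed between the tables in 279 of the shared rows, so a difference in annotation cannot be told apart either.

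Golgb1 had the lowest difference of the 9, at -0.50 (female minus male, log2), and 6.65% of shared rows had a lower one. Trip11 followed at -0.32, Golga1 at -0.24 and Gcc2 at -0.19. Golga4 and Golga5 had nearly equal averages in both tables, with differences of -0.01 and 0.02. The higher values were 0.21 for Golga3, 0.43 for Golga2 and 0.54 for Gcc1. Of these, Golga3 lay 0.02 above the median of all rows. Except for Golgb1, Trip11, Golga1 and Gcc2, the golgins fell within the interquartile range of all rows.

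**Figure D2:**
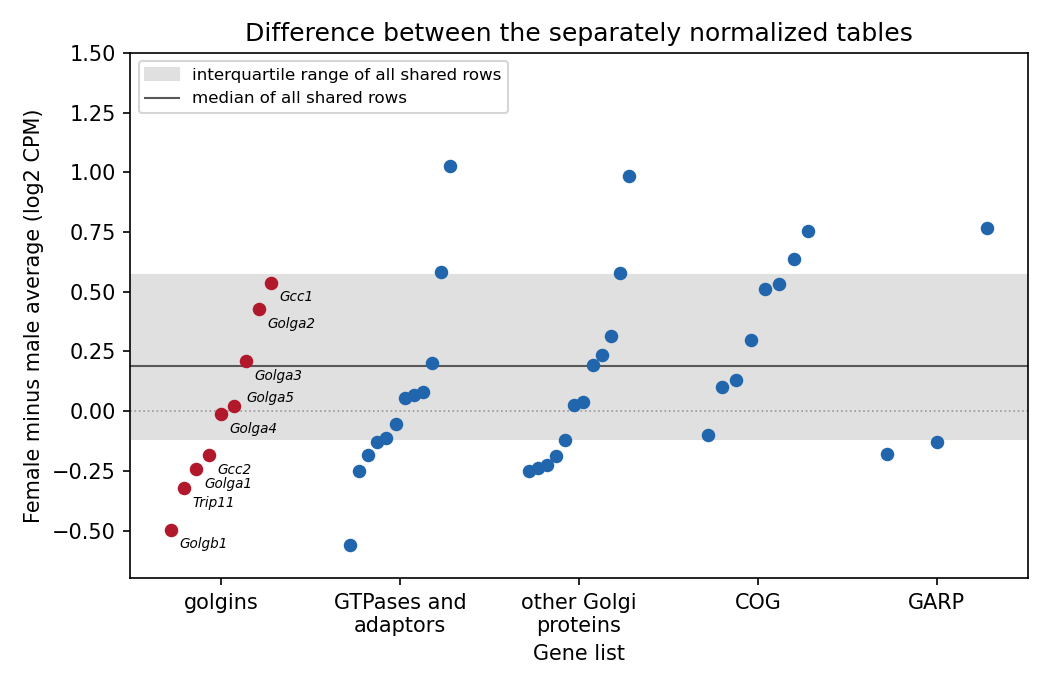
The vertical axis is the female minus the male average level in log2 CPM, each point is a gene, and the gene lists stand side by side; the grey band is the interquartile range of all shared rows, the solid line their median of 0.19, and the dotted line is 0. Golgb1 lies lowest among the golgins at -0.50 and Gcc1 highest at 0.54.

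Genes that work with golgins were given from lists of small GTPases and adaptors, other Golgi proteins, and the multisubunit tethers COG and GARP. Of 13 GTPases and adaptors, 12 had a row in both tables, and no row was found under the symbol Rab1b. Arl1, the GTPase bound by the GRIP domain of several golgins, was at 29.2 CPM in females and 28.1 CPM in males. Arfrp1, which acts before Arl1 on trans-Golgi membranes, was the lowest of the list with 7.77 and 8.82 CPM. Rab6a and Rab6b, GTPases of Golgi and retrograde traffic, held its highest averages. The brain-enriched Rab6b was at 389 CPM in females and 371 CPM in males, and Rab6a at 377 and 449 CPM.

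Genes for partners of the cis golgin GM130 were present as well, as were Gorasp2 and Blzf1. Uso1 encodes p115, a tether that binds GM130 and giantin, and was at 87.8 CPM in females and 94.9 CPM in males. Gorasp1, which encodes the stacking protein GRASP65, was at 20.2 CPM in the female table and 9.92 CPM in the male table. Its difference of 1.03 was the highest of the GTPase and adaptor list, and that of Rab2a, at -0.56, was the lowest. Gorasp2, the paralog of Gorasp1, was at 47.2 and 49.0 CPM. Blzf1, which encodes the GRASP55 partner golgin-45, was at 12.9 and 14.1 CPM. Of the 12 genes with both averages, 9 lay below the median difference of all rows, and the median of the list was 0.00.

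All 12 other Golgi proteins had a row in both tables. They ran in the female table from 4.61 CPM for Golm1, a Golgi membrane protein, to 113 CPM for Bicd2, a dynein adaptor that binds Rab6. In males the same list ran from 5.39 CPM for Golm1 to 108 CPM for Tmf1, a Golgi coiled-coil protein that binds Rab6. The list had a median difference of 0.03, with 7 of 12 genes below the median of all rows.

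The COG complex tethers vesicles that return within the Golgi stack, and all 8 subunits had a row in both tables. Their averages ran from 15.7 CPM (Cog5) to 49.5 CPM (Cog4) in females and from 13.9 CPM (Cog7) to 34.7 CPM (Cog4) in males. The median difference of the COG list was 0.40, and 3 of 8 subunits lay below the median of all rows. The GARP complex tethers vesicles from endosomes at the trans-Golgi, and 3 of its 4 subunits had a row in both tables. No row was found under the symbol Vps51. Vps52 was at 37.9 CPM in females and 22.3 CPM in males, Vps53 at 29.7 and 32.4 CPM, and Vps54 at 34.8 and 39.5 CPM.

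The labelled tissue was checked against marker genes, whose differences between the tables are given as female minus male on the log2 scale. Their directions are read against 0, not against the median of 0.19 over all shared rows. Among neuronal markers, Snap25 was at 886 CPM in females and 1202 CPM in males, a difference of -0.44. Syt1 was at -0.27, Rbfox3 at -0.12 and Stmn2 at 0.25, so these markers did not share a direction. Eno2 stood on a different Ensembl ID in each table and was not compared.

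Markers of inhibitory neurons did not move together. Slc32a1, the vesicular transporter of GABA and glycine, was at 38.3 CPM in females and 9.54 CPM in males. This difference of 2.01 exceeded that of 99.3% of shared rows, whereas Gad1 and Gad2, enzymes of GABA synthesis, were at 0.18 and -0.08. Slc17a6, the vesicular glutamate transporter of midbrain neurons, was at 424 CPM in females and 387 CPM in males.

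Glial markers were present in both tables. The myelin gene Mbp was at 4997 CPM in females and 2533 CPM in males, a difference of 0.98, and the oligodendrocyte gene Mog was at 135 and 137 CPM. Astrocyte markers went in both directions, with -0.33 for Aqp4, -0.18 for Gja1 and 0.25 for Slc1a3. The microglial genes Cx3cr1, Csf1r and P2ry12 were at 0.08, 0.14 and -0.02.

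Markers of other brain regions were low, or were found by symbol in 1 table or in none. Neurod6, a marker of telencephalic neurons, was at 1.48 CPM in females and 2.79 CPM in males. For Emx1, the other telencephalic marker, no row was found under its symbol in either table. The 3 markers of cerebellar granule cells were found by symbol in the male table alone, with 9.29 CPM for Gabra6, 4.24 CPM for Cbln3 and 19.3 CPM for Fat2. Their Ensembl IDs were not looked up in the female table. Fat2 lay above 59.9% of rows in that table. The marker differences ran from -0.92 for Neurod6, low in both tables, to 2.01 for Slc32a1, with -0.44 for Snap25 and 0.98 for Mbp. Gad1, Gad2 and Mog lay within the interquartile range of all shared rows. The 3 cerebellar markers have no difference, as each was found in males only. What part these marker differences had in the female minus male values of the golgins was not tested. In bulk tissue, fewer cells of a type and less RNA per cell cannot be told apart.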

How the data were processed

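Total RNA of the PAG was made into libraries with Illumina's TruSeq RNA kit. RSEM, which estimates counts per gene, and edgeR 3.9 are named in the submitters' processing notes. The sources used here do not give the aligner, the build, the annotation or any low-count filter. Deposited by the authors was 1 table per sex, of 14272 genes in females and 14316 in males, with an average log2 CPM per gene over the 8 libraries of that sex. Each also has 5 further columns with the authors' own comparison of Pink1-/- with WT (fold change, likelihood-ratio statistic, p-value, adjusted p-value and call); they were not used, and no genotype comparison or other test was made. Values per library were not analysed, so depth and its precision are unknown.

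Levels were taken as deposited and converted to CPM; the lowest listed average in females was 0.503 CPM, and that in males 0.463 CPM. Tables were joined by Ensembl ID, and listed genes were found in each table by symbol. A percentile is the percentage of rows in a table with a lower average. Alternatives were other sets of rows: shared rows, rows of at least 1 CPM, and rows with a gene name. Division by coding length and protein features were planned and not run, as no lengths or proteins were used here. A pair of planned genes is not reported here. The members and gene lists were chosen with earlier results of these data known. All 9 members were named. From other lists, the genes with the highest and lowest level, the missing genes and some, not all, of the partners were named. Calculations used Python 3.11.15, numpy 2.4.6 and pandas 2.3.3 and were tested on simulated data.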

Additional observations from a re-analysis of the deposited data

How the results depend on the processing

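Percentiles depended little on which rows formed the background. The median percentile of the 9 golgins was 81.4 in females and 81.4 in males over all rows. It was 80.7 and 80.6 among shared rows, 81.1 and 81.0 among rows of at least 1 CPM, and 79.9 and 79.6 among rows with a gene name. The 18 percentiles of single golgins moved by at most 3.95 points over these settings. The median female minus male difference of the golgins lay -0.20 (log2) from the median of all shared rows. It lay -0.18 from that of rows with at least 5 CPM in both tables and -0.22 from that of rows with a gene name, both chosen after seeing the data, and 6 golgins lay below the median in each case. The order of levels per coding length, the percentile per coding length, the alternative window for the C-terminal stretch and the count tests were not run, since they need lengths, proteins or values per library. No replicate could be left out. No paired analysis was possible because the tables carry no value per library. Depth sets no stated limit here, as it is unknown.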
